A study of Mus musculus with 4 samples.

Results

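The genes described here are immediate early genes, which cells switch on within minutes of a stimulus, and genes of the AP-1 transcription factor. They were taken by name from a list of 10: Fos, Fosb, Fosl2, Jun, Junb, Jund, Egr1, Ier2, Btg2 and Dusp1. Of these, 6 stood among the 6940 genes of the table: Jun, Junb, Jund, Fos, Btg2 and Dusp1. The other 4, Fosb, Fosl2, Egr1 and Ier2, were not analysed here. The table lists genes that the authors had called, 40% of the 17347 genes behind their adjustment of p-values, so a listed gene had already passed a test of these same libraries.

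RNA was sequenced from oligodendrocytes, which wrap axons in myelin, in 4 libraries. Both genotypes were on C57BL/6, and the cells came from the cortex of mice at postnatal day 5 by panning with GalC and then O4 antibodies. They were grown for 6 days, given 40 ng/mL triiodo-thyronine in differentiation medium and harvested at 24 h. Controls (Ctrl, 2 libraries) were Zdhhc5fl/fl, and knockout cells (cKO, 2 libraries) were Olig1cre/+;Zdhhc5fl/fl. All 4 libraries therefore carried the floxed alleles of Zdhhc5, the gene of a palmitoyltransferase. Cre stood only in the cKO libraries, under the Olig1 locus of the oligodendrocyte lineage, so Zdhhc5 loss, Cre itself and the altered Olig1 locus cannot be told apart. No label ties a library to its own culture or animal, and p-values then measure only the spread between these libraries, which may be technical. Zdhhc5 itself was not analysed here, so the genotype labels were not checked by its level.

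AP-1 is a dimer of proteins with a basic region that touches DNA and a leucine zipper that holds the pair together. Jun proteins can pair with each other or with Fos proteins, whereas Fos proteins need a Jun partner. Jun activates strongly, and Junb and Jund are relatives with weaker or context-dependent activity. Growth factors and stress reach these genes through MAP kinases, which phosphorylate Elk factors, CREB and Jun itself. Btg2 is an antiproliferative protein that recruits the CCR4-NOT deadenylase to mRNAs, and Dusp1 is a phosphatase that switches MAP kinases off again. Because these mRNAs respond within minutes, they are also sensitive to how cells are handled before lysis.

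The upstream sequences of 4 of the genes are shown as examples. All 6 genes were higher in the cKO libraries, and the start regions shown share some known motifs and differ in others. Each line gives the 250 bases before the RefSeq start site on GRCm38.p6, read 5′ to 3′ on the gene's strand. Capitals mark matches, on either strand, to the AP-1 site TGANTCA, the cAMP response element TGACGTCA, the Egr site GCGNGGGCG, the CArG box of serum response factor, the CCAAT box CCAAT or the GC box GGGCGG.
Btg2, chr1:134079156-134079405, minus strand: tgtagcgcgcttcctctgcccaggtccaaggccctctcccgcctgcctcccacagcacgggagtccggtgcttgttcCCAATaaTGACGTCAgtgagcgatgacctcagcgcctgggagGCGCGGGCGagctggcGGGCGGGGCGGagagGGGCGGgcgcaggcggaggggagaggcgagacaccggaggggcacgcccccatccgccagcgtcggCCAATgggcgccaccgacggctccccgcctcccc
Jun, chr4:95052223-95052472, minus strand: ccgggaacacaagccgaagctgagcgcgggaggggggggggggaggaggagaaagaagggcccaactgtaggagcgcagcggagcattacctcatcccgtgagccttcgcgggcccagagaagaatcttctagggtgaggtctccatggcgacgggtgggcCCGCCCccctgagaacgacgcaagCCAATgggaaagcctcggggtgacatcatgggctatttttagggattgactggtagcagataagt
Junb, chr8:84978749-84978998, minus strand: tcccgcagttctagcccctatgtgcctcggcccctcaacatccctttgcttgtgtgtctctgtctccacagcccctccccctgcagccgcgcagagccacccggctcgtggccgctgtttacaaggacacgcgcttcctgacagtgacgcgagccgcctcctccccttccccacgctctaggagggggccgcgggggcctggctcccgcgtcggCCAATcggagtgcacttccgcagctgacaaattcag
Fos, chr12:85473640-85473889, plus strand: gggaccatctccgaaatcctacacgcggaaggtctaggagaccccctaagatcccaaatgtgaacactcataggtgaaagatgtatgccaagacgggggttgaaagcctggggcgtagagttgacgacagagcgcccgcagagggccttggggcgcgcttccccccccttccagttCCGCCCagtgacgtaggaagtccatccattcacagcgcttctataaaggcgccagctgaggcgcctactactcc

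Btg2 had the most matches of the 6. A cAMP response element lay at -166 to -159 from its start site and an Egr site at -131 to -123. It also held 3 GC boxes, of which the first and the next overlap by a base, and 2 CCAAT boxes. Dusp1 also held the cAMP response element, at -143 to -136, between GC boxes. Among 32851 RefSeq promoter windows of this length, 1.55% held the cAMP response element and 4.7% the Egr site. Jun held a CCAAT box and a GC box, Junb a CCAAT box and Fos a GC box. CCAAT boxes stood in 33.85% of the windows and GC boxes in 32.74%. These shares were not matched for GC content, and the window of Btg2 had the highest GC content of the 6, 73.2%. No window of the 6 genes held the AP-1 letters (6.75% of all windows) or a CArG box (1.47%), and no letters of the set were found for Jund. Only 250 bases were searched and only for these exact letters, so elements further upstream or with other letters would be missed. The RefSeq start of Jund lies 1210 bases from the start of its model in the table, so that window was not printed. The RefSeq starts of Btg2, Junb and Dusp1 lie 35, 30 and 47 bases from those of their models. The window of Dusp1 was searched but is not shown either.

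The 3 Jun genes encode the partners that Fos proteins need in AP-1 dimers, and each was higher in both cKO libraries. Jun (ENSMUSG00000052684, GRCm38 chromosome 4, 95049034 to 95052222, minus strand) had normalised read counts of 2414.0 and 2427.2 in the Ctrl libraries and 3292.9 and 3282.1 in the cKO libraries. The groups did not overlap, and the libraries of each genotype lay closer together than their counting error of 49.1 to 62.4. Jun rose 1.36-fold, from 2420.6 ± 9.3 to 3287.5 ± 7.6 (SD, n = 2), or by 0.44 ± 0.043 (SE) on the log2 scale (adjusted p 3.81e-09 in limma).

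Junb (ENSMUSG00000052837, chromosome 8, 84974484 to 84978718, minus strand) had 1839.0 and 1796.0 in Ctrl and 2634.8 and 2546.4 in cKO. The lowest cKO library stood 707.4 above the highest control. The rise was 1.43-fold on the ratio of means, or 0.51 ± 0.047 (SE) on the log2 scale (adjusted p 1.61e-09 in limma).

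Jund (ENSMUSG00000071076, chromosome 8, 70698949 to 70700616, plus strand), the family member usually expressed without stimulation, had 902.0 and 862.3 in Ctrl and 1428.9 and 1358.6 in cKO. Both cKO values again lay above both controls. Jund went from 882.2 ± 28.0 to 1393.8 ± 49.7 (SD, n = 2), a rise of 1.58-fold, or 0.66 ± 0.061 (SE) on the log2 scale (adjusted p 1.45e-09 in limma).

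Fos (ENSMUSG00000021250, chromosome 12, 85473890 to 85477273, plus strand), the partner of Jun and the classic marker of recent stimulation, changed least. Its values were 1817.0 and 1873.3 in Ctrl and 2244.5 and 2057.5 in cKO. The cKO libraries stood 187.0 apart, as far as the lower of them stood above the higher control (184.2). The rise was 1.17-fold, or 0.22 ± 0.052 (SE) on the log2 scale (adjusted p 8.17e-04 in limma).

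Btg2 (ENSMUSG00000020423, chromosome 1, 134075170 to 134079120, minus strand) changed most. It had 553.0 and 576.3 normalised reads in Ctrl and 1107.2 and 1116.6 in cKO. Libraries of a genotype lay 23.3 (Ctrl) and 9.4 (cKO) apart, within counting errors of 23.5 to 36.4, and the gap between genotypes was 530.9. Btg2 rose 1.97-fold, from 564.6 ± 16.4 to 1111.9 ± 6.7 (SD, n = 2), or by 0.98 ± 0.068 (SE) on the log2 scale (adjusted p 8.98e-12 in limma). Of all listed genes, 93.9% had a lower log2 fold change.

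Dusp1 (ENSMUSG00000024190, chromosome 17, 26505590 to 26508519, minus strand), the feedback phosphatase, was the scarcest. Its values were 226.0 and 187.3 in Ctrl and 318.4 and 269.4 in cKO, from 184 to 390 recovered reads. The groups did not overlap, but the gap of 43.4 was smaller than the 49.1 between the cKO libraries. Dusp1 rose 1.42-fold, or by 0.51 ± 0.124 (SE) on the log2 scale (adjusted p 0.00125 in limma).

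**Figure D1:**
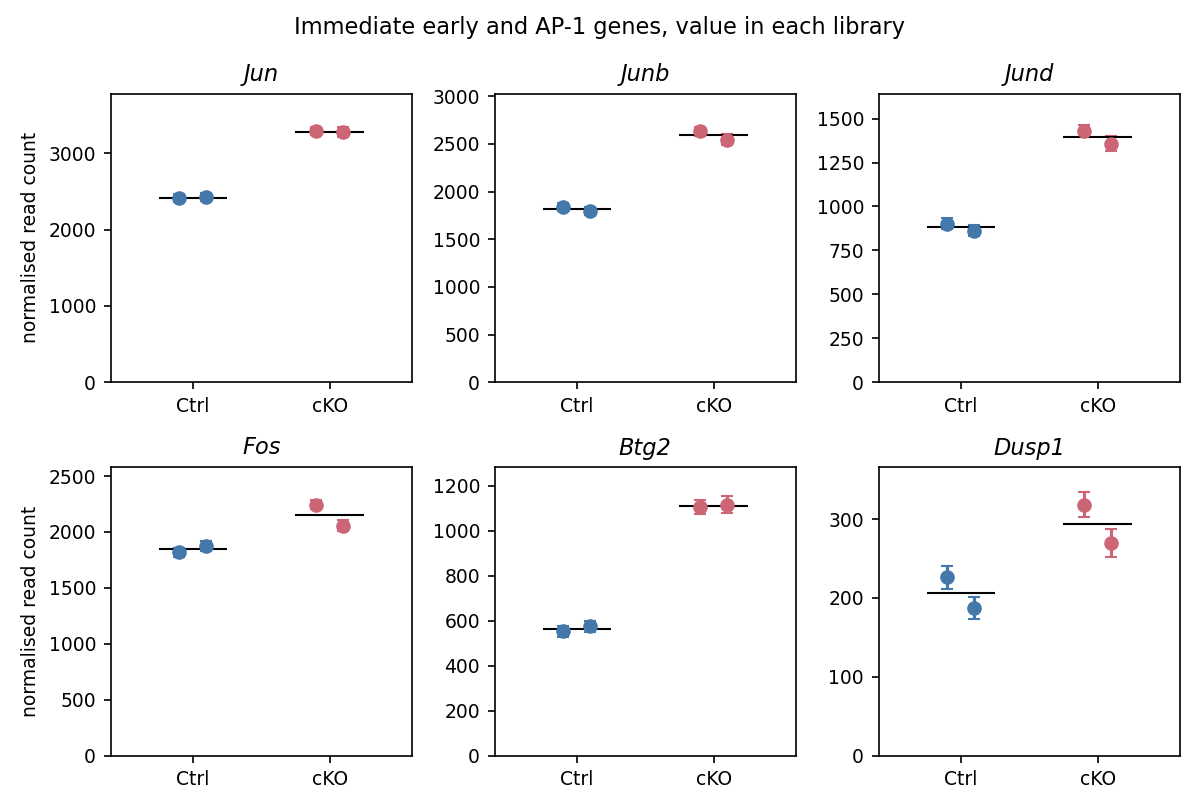
Normalised read count (vertical axes, from 0) of each gene in each library, with Ctrl in blue and cKO in red; error bars are the counting SD and black lines the genotype means. Both cKO points lie above both Ctrl points in all 6 genes, with the smallest gap in normalised reads in Dusp1 (43.4) and the largest fold in Btg2 (1.97).

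All 6 genes were called higher, where 100% of the listed genes were called, 46.7% of them higher and 53.3% lower. The authors' deposited table gives the same log2 fold changes to 2 decimals, with adjusted p-values from 3.25e-18 for Btg2 to 0.033 for Dusp1. The median log2 fold change of the 6 was 0.51, beside -0.22 over all listed genes and 0.47 over the listed genes that were higher. Both cKO values lay above both controls in 46.7% of listed genes. For any single gene, an exact two-sided permutation test of 2 libraries against 2 cannot go below p = 0.333.

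Length-scaled levels place the genes on a common scale. In Ctrl, Junb had 789.9 ± 13.2 normalised reads per kilobase, Fos 784.5 ± 16.9 and Jun 759.0 ± 2.9 (SD, n = 2). Junb and Fos overlapped between libraries, whereas both Jun values lay below both of theirs. Jund followed at 528.9 ± 16.8, Btg2 at 205.8 ± 6.0 and Dusp1 at 76.6 ± 10.1, and these did not overlap with each other.

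In cKO the order changed at the level of Fos. Junb stood at 1125.9 ± 27.2 reads per kilobase, Jun at 1030.9 ± 2.4, Fos at 914.6 ± 56.2 and Jund at 835.6 ± 29.8 (SD, n = 2), with no overlap between neighbours. Btg2 reached 405.4 ± 2.4 and Dusp1 109.0 ± 12.9. The log2 ratio of Fos to Jun per kilobase was 0.03 and 0.07 in the Ctrl libraries and -0.11 and -0.23 in the cKO libraries. Fos was thus level with Jun or slightly above it in Ctrl and below it in cKO. With the trend in GC content removed, the log2 fold changes of Fos and Jun were -0.08 and -0.01, in place of 0.22 and 0.44. With the trends in GC content and length both removed they were -0.20 and 0.00. The size of the shift thus depended on the correction, and its cause was not tested.

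The make-up of the Jun family moved slightly toward Jund. The 3 genes summed to 2097.0 and 2058.6 reads per kilobase in Ctrl and 3034.3 and 2950.4 in cKO. Jund held 25.8% and 25.1% of this sum in Ctrl and 28.2% and 27.6% in cKO, while Jun held 36.1% and 37.0% in Ctrl and 34.0% and 34.9% in cKO. Junb kept between 37.5% and 38.1% in the 4 libraries. With the trends in GC content and length removed, the log2 fold changes of Jund and Jun were 0.05 and 0.00, in place of 0.66 and 0.44, so most of this shift was then gone. The shares rest on the lengths of the gene models in the table and were not tested beyond the lack of overlap for Jun and Jund.

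**Figure D2:**
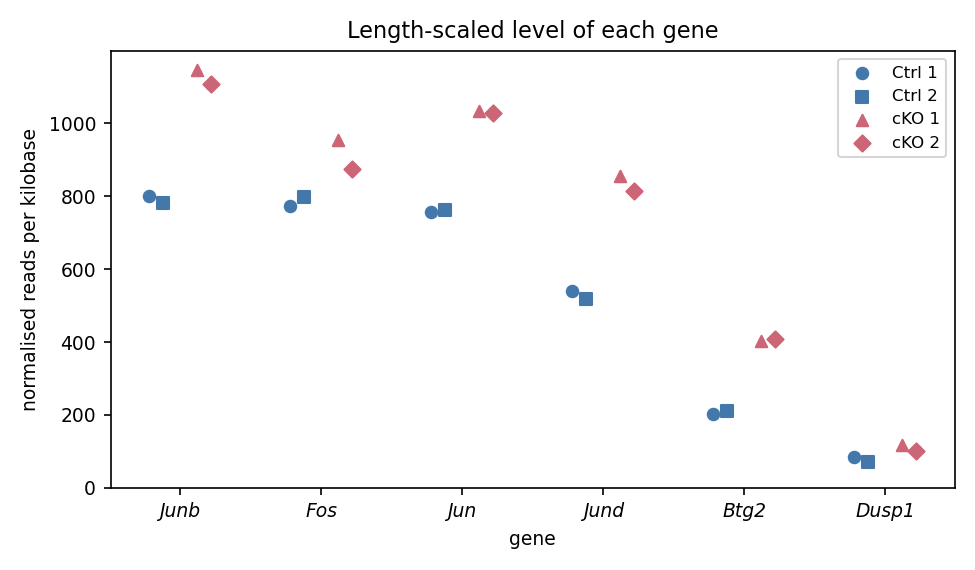
Normalised reads per kilobase (vertical axis) of the 6 genes in the 4 libraries, Ctrl in blue and cKO in red. Junb, Fos and Jun lie near 759.0 to 789.9 in Ctrl and spread to between 914.6 and 1125.9 in cKO.

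The 6 genes share features that the choice by name did not use. All 6 have transcripts shorter than the median of the listed genes, 4892 bases, with model lengths from 1668 bases in Jund to 3189 in Jun. All 6 have a GC content above the listed median of 49.4%. Jund (67.1%) exceeded 99.8% of listed genes and Junb (62.6%) exceeded 98.7%, followed by Jun (55.5%), Dusp1 (54.0%), Fos (51.9%) and Btg2 (49.7%). Jun, Junb and Jund are genes of 1 exon, Btg2 has 2 exons, and Fos and Dusp1 have 4, by the longest coding transcript in GENCODE M21.

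Fold changes of the listed genes moved with GC content. In the decile of genes with the lowest GC content the median log2 fold change was -0.77 and 5.91% were higher in cKO. In the decile with the highest GC content the median was 0.41 and 80.4% were higher. The median was 0.38 in the decile of Jun and Dusp1, 0.41 in that of Junb and Jund and 0.32 in that of Fos. Btg2, at 0.98, stood beside a median of 0.20 in its decile.

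**Figure D3:**
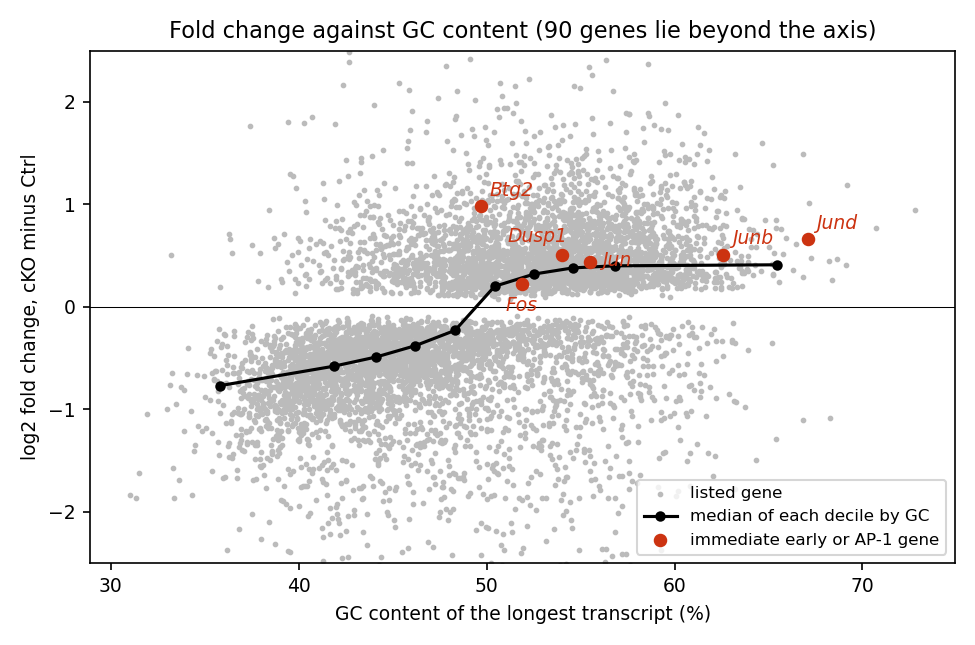
Log2 fold change (cKO minus Ctrl) against the GC content of the longest transcript in percent, for each listed gene (grey), the 6 genes (red) and the median of each decile of genes by GC content (black line). The medians climb from -0.77 to 0.41, and Btg2, at 0.98, stands well above the line; 90 genes lie beyond the vertical axis.

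Removing this trend ended the call of 5 of the 6 genes. With the trend with GC content taken out of each library, the log2 fold change was -0.01 for Jun (limma adjusted p 1), -0.01 for Junb (1), 0.08 for Jund (0.556), -0.08 for Fos (0.419) and 0.10 for Dusp1 (1). Btg2 kept its rise, at 0.87 (SE 0.067, limma adjusted p 5.50e-11). Of the listed genes, 28.3% were then called higher and 40.3% lower. With trends in GC content and length both removed, Btg2 rose by 0.73 (SE 0.066, adjusted p 4.20e-09). Fos turned to a called fall, at -0.20 (SE 0.051, adjusted p 0.00366), and the others lay between -0.06 and 0.05 with no call. After this second correction 28.8% of the listed genes were called higher and 41.7% lower. The trend could be measured only over genes already called, and whether GC content has a part in these differences was not tested.

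**Figure D4:**
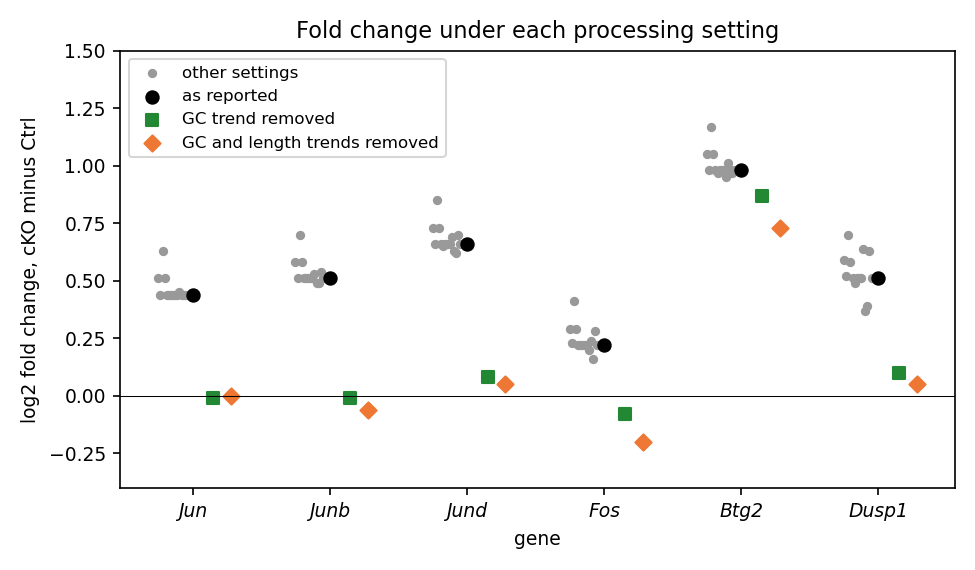
Log2 fold change of each gene (vertical axis) as reported (black), with the GC trend removed (green squares), with GC and length trends removed (orange diamonds) and under the other settings without such a correction (grey). Btg2 alone stays far above 0 in all of them, falling to 0.73.

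Reads of 3 genes can be mixed with those of a neighbour on the other strand, since the strand setting of the counting is not known here. In GENCODE M21, Jund shares 877 of its 1668 exonic bases with the antisense RNA Gm11175. Junb shares 173 of 2301 with Prdx2, an abundant peroxiredoxin mRNA at a mean of 16755 normalised reads, whose log2 fold change was 0.10. Jun shares 232 of 3189 with the antisense RNA Junos.

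Other subunits that can enter AP-1 dimers moved in both directions. Of 13 such genes 4 were listed, 2 higher and 2 lower (median log2 fold change 0.11). Of all listed genes, 46.7% were higher and 53.3% lower. Atf3, a stress-induced subunit, rose from 169.0 and 201.6 normalised reads in Ctrl to 289.0 and 291.9 in cKO, 1.57-fold higher. Jdp2, a repressor of AP-1, rose 1.32-fold. Atf2, a partner of Jun at cAMP response elements, fell from 1061.5 ± 68.6 to 756.6 ± 15.7 (SD, n = 2), and Mafg, a small Maf protein, fell by 0.18 on the log2 scale. The fall of Mafg was not called without Ctrl 2 (limma adjusted p 0.0513) and was gone with the scaling of DESeq2 (0.02, DESeq2 adjusted p 1). With the trends in GC content and length removed, Mafg at -0.47 was the only listed gene of this list that was called.

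Among 37 other immediate early genes 21 were listed, 14 higher and 7 lower (median log2 fold change 0.49), where 46.7% of all listed genes were higher. Ctgf, a secreted matricellular protein, rose most, from 148.0 and 150.7 normalised reads in Ctrl to 510.3 and 491.2 in cKO, 3.35-fold higher (1.74 ± 0.107 (SE) on the log2 scale, adjusted p 9.67e-13 in limma). Klf2, a zinc finger factor of endothelial and other cells, rose from 15 and 22.4 to 62.1 and 61.7. The synaptic scaffold gene Homer1 fell 2.38-fold and the stress kinase gene Plk3 fell 2.15-fold. With the trends in GC content and length removed, 8 genes of this list were higher and 8 lower, beside 28.8% and 41.7% of all listed genes. The log2 fold changes were then 1.55 for Ctgf, 1.11 for Klf2, -0.32 for Homer1 and -1.64 for Plk3.

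The kinases and factors that switch these genes on moved in both directions. Of 37 genes 19 were listed, 6 higher and 13 lower (median log2 fold change -0.30), where 53.3% of all listed genes were lower and their median was -0.22. The list was not tested against the other genes. Creb1, the factor that binds cAMP response elements, fell from 1175.0 and 1209.5 normalised reads in Ctrl to 681.0 and 649.1 in cKO. Braf, a kinase at the head of the ERK cascade, fell 1.69-fold, and Rps6ka3, an ERK-dependent kinase, fell 1.74-fold. Rps6ka1, a related kinase, rose 2.10-fold, from 744.5 ± 63.0 to 1565.1 ± 26.8 (SD, n = 2). With the trends in GC content and length removed, the list had 4 genes higher and 6 lower, beside 28.8% higher and 41.7% lower over all listed genes. Rps6ka1 at 0.69 and Rps6ka3 at -0.20 were still called, whereas Creb1 at -0.08 and Braf at -0.18 were not (limma adjusted p 0.72 and 0.069). The higher genes then included Mkl2 (0.35) and Rps6ka5 (0.23), both named after their values were seen. Before that correction Rps6ka5 was lower, at -0.31. With the scaling of DESeq2, 8 genes of the list were called lower in place of 13.

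Phosphatases and feedback inhibitors of the MAP kinases, the group to which Dusp1 belongs, were also mixed. Of 16 others 8 were listed, 5 higher and 3 lower (median log2 fold change 0.33). Of all listed genes, 46.7% were higher and 53.3% lower. Dusp4, a nuclear phosphatase induced by ERK, rose from 341.0 and 306.5 normalised reads in Ctrl to 618.1 and 529.2 in cKO, and Dusp6, the cytoplasmic ERK phosphatase, rose 1.39-fold. Dusp7, a close relative of Dusp6, fell 1.80-fold, and Dusp10, which acts on JNK and p38, fell 1.56-fold. The remaining listed genes of this list, named after their values were seen, were Spry2, Spry4 and Spred2 (higher) and Spred1 (lower), which restrain receptor signalling. Spred2 was not called without Ctrl 1 (limma adjusted p 0.0844). The 4 phosphatases kept their direction and their call with the trends in GC content and length removed, at 0.33 for Dusp4 and Dusp6, -1.30 for Dusp7 and -0.75 for Dusp10. Spry4 at 0.21, Spred2 at 0.03 and Spred1 at 0.08, which had been lower at -0.43, were then not called (limma adjusted p 0.18, 1 and 0.25). The list thus went from 5 higher and 3 lower to 3 higher and 2 lower, beside 28.8% higher and 41.7% lower over all listed genes.

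Btg2 differed in direction from the listed subunits of the deadenylase that it recruits. Of 17 genes of the BTG and TOB family and of CCR4-NOT, 7 were listed, 1 higher and 6 lower (median log2 fold change -0.42), where 46.7% of all listed genes were higher and 53.3% lower. Tob1, a relative of Btg2 singled out after its values were seen, rose 1.27-fold. Cnot6, a catalytic subunit, fell from 4838.0 and 4680.3 normalised reads in Ctrl to 2261.7 and 2077.7 in cKO, 2.19-fold lower. Cnot6l, its close paralogue, fell 1.86-fold, Cnot7, the other kind of catalytic subunit, 1.46-fold, and the scaffold Cnot1 1.34-fold. With the trends in GC content and length removed, 1 gene of the list was higher and 2 were lower. Of all listed genes, 28.8% were then higher and 41.7% lower. Cnot6 at -0.54 was still called, while Cnot6l, Cnot7 and Cnot1 were not, at -0.06, 0.14 and 0.04. How reads that match both Cnot6 and Cnot6l were counted is not known here, so their separate values are uncertain.

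Among 10 partners and regulators of Jun proteins 4 were listed, 1 higher and 3 lower (median log2 fold change -0.47). Of all listed genes, 46.7% were higher and 53.3% lower, with a median of -0.22. Itch and Cop1, ubiquitin ligases for which Jun is a known substrate, fell 1.43-fold and 1.40-fold. Smarcd1, a chromatin remodelling subunit, fell 1.37-fold, and Men1, which encodes the Jund-binding protein menin, rose from 1579.0 and 1741.0 normalised reads in Ctrl to 2083.7 and 2063.5 in cKO. With the trends in GC content and length removed, Itch (0.00) and Men1 (-0.11) were not called, Smarcd1 stayed lower at -0.85, and Cop1 turned to a rise of 0.57.

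**Figure D5:**
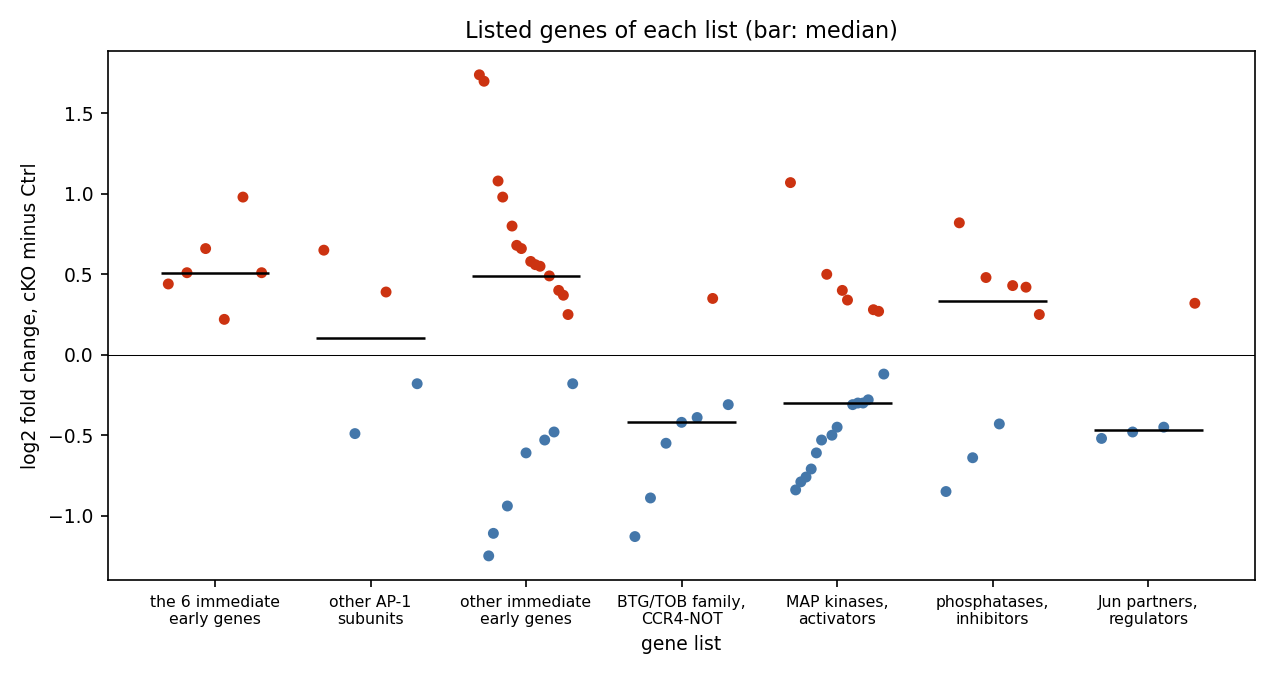
Log2 fold change (cKO minus Ctrl, vertical axis) of the 6 genes and of the listed genes of each related list, red above and blue below 0, with the median as a bar. The 6 genes all lie above 0, whereas each related list holds genes on both sides, with medians from -0.47 to 0.49.

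The genes with the most similar profiles were found by the distance between log2 profiles over the 4 libraries, each centred on its mean. Nearest to Jun were Nacc2, Sparcl1 and Slc19a2, and nearest to Junb were Mmp14, Pink1 and Ptms. Those of Jund were Mpst, Vgf and Efhd2, and those of Fos were Acaa1a, Gpc1 and Kat2a. Nearest to Btg2 were Dlx2 (distance 0.022), Cyr61 (0.0281), which is itself an immediate early gene, and Slit1 (0.0323), and those nearest to Dusp1 included Galk1 and Ddx58. With 4 libraries many genes look alike: 456 genes lay within a distance of 0.1 of Jun and 57 within that of Btg2.

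Markers of cell types moved with the genotype in the same libraries. Of all listed genes, 46.7% were higher and 53.3% lower. All 9 oligodendrocyte markers were listed and lower in cKO, their sum going from 222623 and 222926 normalised reads in Ctrl to 46692 and 46563. Mbp alone held 124322 of this sum in Ctrl 1 and 16102 in cKO 1. Olig1, also among the 9, fell by 0.81 on the log2 scale, which cannot be told apart from the Cre insertion at its locus. Of 12 astrocyte markers 11 were listed, 9 higher and 2 lower, with sums of 511353 and 512203 in Ctrl and 771559 and 764521 in cKO. Astrocyte transcripts were thus abundant in cells labelled as oligodendrocytes. Gfap alone held 351481 of this sum in Ctrl 1 and 557247 in cKO 1, and the 2 lower markers were S100b (-1.63) and Aqp4 (-0.16). Pericyte and fibroblast markers were listed for 9 of 12, all higher, with sums of 3808 to 4001 in Ctrl and 11909 to 12317 in cKO. Microglia markers were listed for 6 of 12, all higher, with sums of 2643 to 2717 and 3834 to 4038. Endothelial markers (5 of 10 listed, 3 higher and 2 lower, median log2 fold change 1.86) summed to 455 to 457 in Ctrl and 403 to 434 in cKO. The 2 lower ones, Kdr and Vwf, held 199 and 226 of this sum in Ctrl 1. Cdh5, Emcn and Tie1 were higher, at 10, 14 and 6 in Ctrl 1 and 93.9, 47.4 and 20.4 in cKO 1. Neuron markers (10 of 12 listed, 8 higher and 2 lower, median 0.64) summed to 18610 to 18926 and 17532 to 17749. The 2 lower ones, Map2 and Dcx, held 10562 and 3581 of this sum in Ctrl 1. None of the 50 listed markers was at 0 in any library. Other cell types express immediate early genes too, the part of these cells in the values of the 6 genes was not tested, and in bulk RNA a change in the number of cells of a type and a change in RNA per cell cannot be told apart.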

How the data were processed

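The values are a normalised signal that the authors deposited: counts of reads in each gene, divided by a library's size factor, as judged from the values. Within 0.01 read, 100.0% of values were whole multiples of a step. Recovered reads of the listed genes numbered 17077509 and 16773675 in Ctrl and 20068016 and 13672254 in cKO, not the full depth. The authors' deposited table also gives a log2 fold change, a p-value and an adjusted p-value. The submitters' processing notes name DESeq2 and the builds mm10 and GRCm38; aligner, counter and annotation release: not given in the sources used here. Columns of other samples numbered 0.

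Genotypes were compared with limma 3.58.1 in R 4.3.3 on log2(value + 1) over all 6940 listed genes, with a variance trend and genotype as the only term. The filter asked for values of 1 or more in 2 libraries. Fold changes on this scale understate those of low genes. P-values were adjusted by Benjamini-Hochberg with 17347 as the number of genes, read from the authors' own adjustment. An adjusted p under 0.05 was a call. Because listed genes were selected for their difference, a call here is not independent evidence and the pooled variance may be too small. The script was tested on simulated data in which most genes did not change and no GC or length trend was set. That test therefore does not bear on preselected genes or on the GC corrections.

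The planned count test, edgeR 4.0.16, and DESeq2 1.42.0 were run on recovered reads as alternatives, because the deposited values were normalised. GC content came from the longest GENCODE M21 transcript, found for 99.9% of genes by gene ID. Its trend (lowess per library), or additive splines of GC content and log length, were subtracted with the library's mean kept. Promoters were matched by symbol for 6 of 6 genes in RefSeq's table (GRCm38.p6).

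Libraries of a genotype differed by more than counting noise (chi-square per gene of 2.31 in Ctrl and 3.36 in cKO), so none were merged; whether they come from separate cultures was not tested. Counting SDs cover counting error only. Named genes were all listed members, the 4 largest changes of each related list and the 3 nearest profiles per member. Some items are not reported here. The members, lists and tests were chosen with earlier results of these data known.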

Additional observations from a re-analysis of the deposited data

How the results depend on the processing

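Of 17 alternatives, the 14 without a GC correction kept direction and call for all 6 genes (84 of 84 values): other pseudocounts, filters and scalings, limma on reads scaled by TMM, edgeR, DESeq2, adjustment over listed genes only, the replicate block and leaving out each library. Over these the log2 fold change ranged from 0.44 to 0.63 for Jun, 0.49 to 0.70 for Junb, 0.62 to 0.85 for Jund, 0.16 to 0.41 for Fos, 0.95 to 1.17 for Btg2 and 0.37 to 0.70 for Dusp1. Listed genes had already been called in these same libraries, so the kept calls were largely set in advance. Over all listed genes, 3244 were called higher as reported, 3244 with edgeR and TMM, 3247 with DESeq2 and 3242 with the replicate block. The edgeR test with the authors' size factors was added after seeing the data. DESeq2's own size factors moved the median of all listed genes from -0.217 to -0.026, with 56.3% of calls higher instead of 46.7%.

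The GC corrections changed the results, and the cause was not tested. With the GC trend removed, Jun was -0.01, Junb -0.01, Jund 0.08, Fos -0.08 and Dusp1 0.10, with 1 of the 6 genes called higher and 19 genes of the related lists called higher. With GC and length trends removed, and likewise with the replicate block added, Jun was -0.0002, Junb -0.06, Jund 0.05, Fos -0.20 and Dusp1 0.05, with 1 of the 6 called higher, 1 lower, and 17 related genes called higher. Related genes called lower numbered 20, and 19 with the block. Of all listed genes, 1961 were then higher and 2792 lower with the GC trend removed, and 1994 and 2892 with both removed, against 3244 and 3696.

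Libraries of the same number did not deviate together (correlation over genes 0.013), and the labels do not pair them. The replicate block alone left 6 of 6 genes called and 3242 genes higher and 3696 lower. Dusp1 rests on the fewest reads, 184 to 390 per library.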
